A study of Homo sapiens with 14 samples.

Results

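The HOX genes studied here were the 39 protein-coding genes whose names are HOXA, HOXB, HOXC or HOXD followed by a number, out of 20033 protein-coding genes in the GENCODE annotation. They lie in 4 clusters, with 11 genes in HOXA on chromosome 7, 10 in HOXB on chromosome 17, 9 in HOXC on chromosome 12 and 9 in HOXD on chromosome 2. Each cluster was examined together with 50 kb on either side. These 4 regions held 57 of the 72802 reference peaks of MM.1S cells and 41 of the 79969 reference peaks of RPMI8226 cells.

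Both are human multiple myeloma (MM) cell lines, that is, cancers of plasma cells. Open chromatin was profiled by Omni-ATAC, in which a transposase cuts and tags accessible DNA, in 14 libraries. Myeloma cells were grown alone (MONO), above a transwell membrane that separated them from HS5 bone marrow stromal cells (TSW), or in the lower chamber in contact with HS5 cells (CO). MM.1S had 3 MONO, 3 TSW and 3 CO libraries, and RPMI8226 had 1 MONO, 2 TSW and 2 CO libraries. All groups were sorted as CD90-CD38+ cells. Within each line, no genotype or drug differed between MONO, TSW and CO. The lists compared below come from different lines, and so from different genotypes. Each line is a single cell line, HS5 is also a line, and nothing states that replicates came from separate cultures.

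The deposited data are 1 reference peak list per line, which keeps peaks found in 3 or more libraries of the line, pooled over conditions. Each peak has a position and a whole number from 3 to 9 in MM.1S and from 3 to 5 in RPMI8226. This number was read as support, the number of libraries that called the peak. These lists give neither read counts nor single-library values, so that depth cannot be read from them and no test between MONO, TSW and CO could be made. The study lists read totals for its libraries, which were not used here. Intervals below are 95% Wilson intervals over genes or peaks, which cover counting error only, and neighbouring genes and peaks are not independent. No test was made of the differences below, which are descriptions of these lists.

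HOX proteins are homeodomain transcription factors that give cells a position along the body axis. The genes are numbered by paralog group from 1 to 13, so that HOXA9 and HOXD9 are closer relatives than neighbours in a cluster are. Gene order within a cluster follows the order of expression along the axis. Trithorax complexes hold the clusters active and Polycomb complexes hold them silent. In blood, HOXA9, HOXA10 and HOXB4 are known for their roles in stem and progenitor cells.

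The label of the cells was first read against marker genes. A gene was said to have a promoter peak when a peak lay within 2500 bp of the start of its canonical transcript. Of 10 plasma cell markers, 9 had one in both lists (90.0%, against 62.0% of all protein-coding genes). PRDM1, XBP1, IRF4, SDC1 and CD38 were among them, and JCHAIN had one in MM.1S only. Of 16 stromal markers, MM.1S had a promoter peak for 8 (50.0%, against 71.5% of all protein-coding genes) and RPMI8226 for 4 (25.0%, against 65.2%). COL1A1, COL1A2 and PDGFRB had one in both lists. No promoter peak was found in either list for COL3A1, COL6A3, LUM, DCN, THY1, TWIST2 and POSTN. The part of carried-over HS5 cells in the HOX peaks was not tested.

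Several kinds of sequence carry the results that follow. The first is the DNA under peaks found in every library of both lines. For HOXA and HOXD the widest such pair of peaks is given, and up to 300 bases of the overlap that lie outside annotated untranslated regions are shown on the plus strand of hg38, with each CpG in capitals. In HOXA the peaks lie between the canonical starts of HOXA6 and HOXA3 (chr7:27150704-27151003) and in HOXD between those of HOXD13 and HOXD12 (chr2:176097545-176097844). For the HOXC pair, downstream of the HOXC12 start, no stretch of useful length remained.
HOXA peak: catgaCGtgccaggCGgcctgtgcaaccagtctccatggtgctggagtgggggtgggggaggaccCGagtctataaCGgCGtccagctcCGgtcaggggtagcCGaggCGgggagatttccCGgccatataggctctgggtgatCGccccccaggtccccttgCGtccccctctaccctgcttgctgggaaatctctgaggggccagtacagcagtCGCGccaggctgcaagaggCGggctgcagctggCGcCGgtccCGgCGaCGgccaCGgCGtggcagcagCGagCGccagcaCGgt
HOXD peak: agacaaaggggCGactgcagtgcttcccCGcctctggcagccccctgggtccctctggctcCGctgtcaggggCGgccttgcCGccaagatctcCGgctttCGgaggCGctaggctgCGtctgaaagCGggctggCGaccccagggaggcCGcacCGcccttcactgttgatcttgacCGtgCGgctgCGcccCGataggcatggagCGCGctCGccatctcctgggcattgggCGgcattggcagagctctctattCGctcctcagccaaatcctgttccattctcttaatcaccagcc
The HOXA stretch holds 24 CpGs and the HOXD stretch 22.

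The next pair contrasts starts that are both rich in CpG and unlike in their peaks. They were chosen after their values were seen. Both are the 250 bases upstream of the RefSeq start, on the plus strand of GRCh38.p14, again with CpGs in capitals. RefSeq entries were matched by symbol for 18 of the 39 HOX genes.
HOXD1 upstream, chr2:176188418-176188667: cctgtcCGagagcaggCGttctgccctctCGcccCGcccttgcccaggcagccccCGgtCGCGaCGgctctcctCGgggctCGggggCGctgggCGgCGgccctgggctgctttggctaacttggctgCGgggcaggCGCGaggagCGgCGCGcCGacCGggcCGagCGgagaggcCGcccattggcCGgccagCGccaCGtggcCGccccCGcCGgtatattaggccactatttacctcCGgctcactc
HOXD11 upstream, chr2:176107030-176107279: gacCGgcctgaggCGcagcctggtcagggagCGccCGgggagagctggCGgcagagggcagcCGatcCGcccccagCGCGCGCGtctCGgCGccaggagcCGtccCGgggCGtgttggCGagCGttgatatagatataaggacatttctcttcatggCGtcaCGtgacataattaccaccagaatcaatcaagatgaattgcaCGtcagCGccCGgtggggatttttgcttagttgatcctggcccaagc
The HOXD1 stretch holds 31 CpGs and lies under an MM.1S peak called in 9 of 9 libraries. The HOXD11 stretch holds 23 CpGs, and the nearest peak to the HOXD11 start was 4048 bp away in MM.1S and 9395 bp away in RPMI8226.

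The last set comprises the 3 matches to the CTCF consensus that lie in HOX region peaks. Labels name the canonical HOX starts on either side of a match. The HOXB1/HOXB2 match lies within the HOXB2 gene. CTCF is the zinc finger protein that anchors chromatin loops and separates domains. Each is shown 5′ to 3′ on the minus strand of hg38, which is also the strand of the HOXA and HOXB genes, with the match in capitals and 10 bases on either side.
HOXA7/HOXA9, chr7:27161128-27161159: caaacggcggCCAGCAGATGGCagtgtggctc
HOXB1/HOXB2, chr17:48543733-48543764: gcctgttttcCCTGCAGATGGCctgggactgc
HOXB8/HOXB9, chr17:48618736-48618767: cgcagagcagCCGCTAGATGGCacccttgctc

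HOX starts were seldom under a peak. A promoter peak was found for 20 of 39 HOX genes in MM.1S (51.3%, interval 36.2 to 66.1), against 71.5% of all protein-coding genes. In RPMI8226 it was found for 14 of 39 (35.9%, interval 22.7 to 51.6), against 65.2% of all. Both lists had one for 13 HOX genes (33.3%, against 62.0% of all genes), and neither had one for 18 (46.2%, against 25.4%). MM.1S alone had one for 7 HOX genes (17.9%, against 9.42% of all) and RPMI8226 alone for 1 (2.56%, against 3.18%). A promoter peak called in every library of the line was found for 15 HOX genes in MM.1S (38.5%, against 64.5% of all) and 10 in RPMI8226 (25.6%, against 60.4%).

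The difference from other genes was larger at the start itself. The start lay inside a peak for 6 HOX genes in MM.1S (15.4%, against 62.1% of all genes) and for 1 in RPMI8226 (2.56%, against 53.9%). Those in MM.1S included HOXA13, HOXB4, HOXB9, HOXC4 and HOXD1, and the 1 in RPMI8226 was HOXC4. Several other starts sat just beside a peak. In RPMI8226 the nearest peak was 15 bp from the HOXB4 start, 50 bp from HOXC10, 55 bp from HOXB9 and 68 bp from HOXA13. In MM.1S it was 20 bp from HOXC10 and 25 bp from HOXB7.

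With distance the MM.1S share caught up with that of all genes. Within 5000 bp of the start, 76.9% of HOX genes and 76.3% of all genes had an MM.1S peak, and within 20000 bp all 39 HOX genes had one. RPMI8226 stayed lower, with 51.3% of HOX genes and 70.8% of all genes at 5000 bp. The farthest start from a peak was HOXA4 in MM.1S, at 19621 bp, and HOXD1 in RPMI8226, at 80507 bp.

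**Figure D1:**
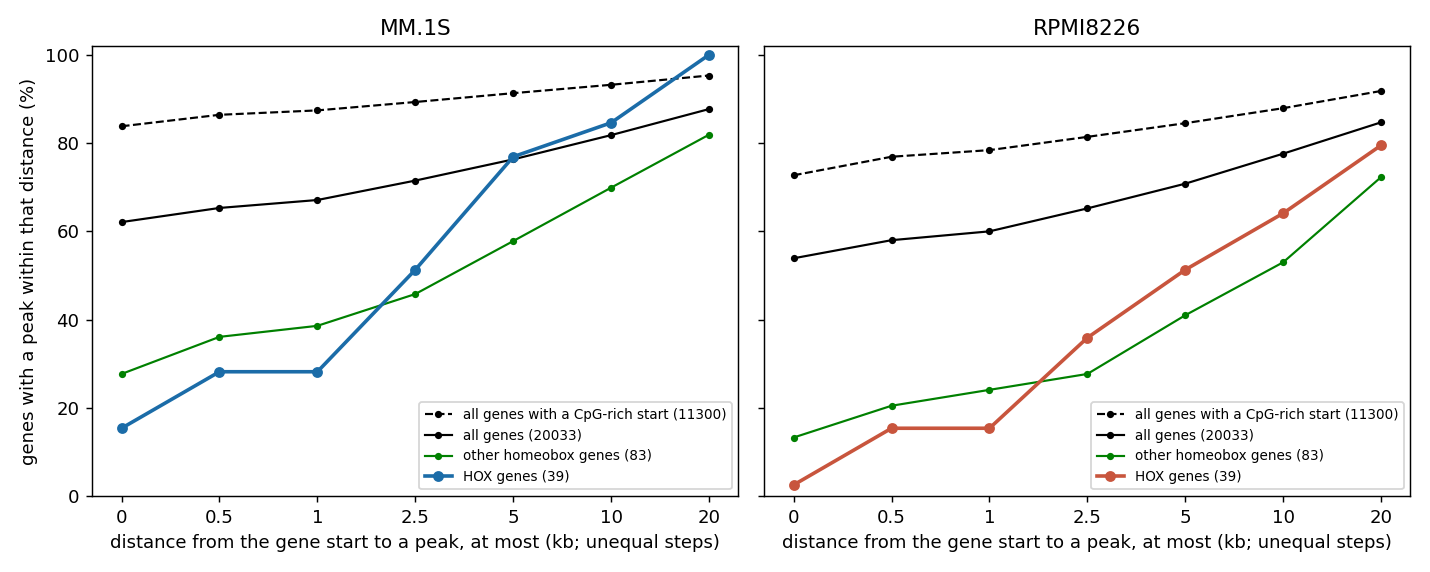
Share of genes (%) with a peak within a given distance (kb) of the canonical start, for MM.1S on the left and RPMI8226 on the right. The coloured HOX line starts at 15.4% and 2.56%, below the other lines, and in MM.1S reaches 100.0% at the largest distance.

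Most HOX starts are rich in CpG, a property that usually goes with open promoters. Here 27 of 39 had at least 55% GC and an observed to expected CpG ratio of at least 0.65 over the 1001 bp around the start. Among these 27, 14 had a promoter peak in MM.1S (51.9%, against 89.3% of 11300 CpG-rich starts of all genes) and 10 in RPMI8226 (37.0%, against 81.4%). Their starts lay inside a peak for 5 genes in MM.1S (18.5%, against 83.8% of CpG-rich starts of all genes) and 0 in RPMI8226 (against 72.7%). HOXA5, HOXA9, HOXC9, HOXD8, HOXD9, HOXD11 and HOXD13 were among the 13 CpG-rich starts without a promoter peak in either list.

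Other homeobox genes outside the clusters were the closest comparison. Of 83 such genes, MM.1S had a promoter peak for 38 (45.8%, interval 35.5 to 56.4) and RPMI8226 for 23 (27.7%, interval 19.2 to 38.2). Of the 65 with a CpG-rich start, 43.1% had one in MM.1S and 29.2% in RPMI8226, against 51.9% and 37.0% for such HOX genes. CpG-rich starts without a promoter peak were thus not particular to the HOX genes. Start-in-peak shares were 27.7% and 13.3%, against 15.4% and 2.56% for the HOX genes. With the 2500 bp window, promoter shares of the HOX genes were above those of other homeobox genes in both lists, with overlapping intervals. Start-in-peak shares were below, and no test was made. Within 1000 bp the HOX shares were also below, at 28.2% against 38.6% in MM.1S and 15.4% against 24.1% in RPMI8226.

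**Figure D2:**
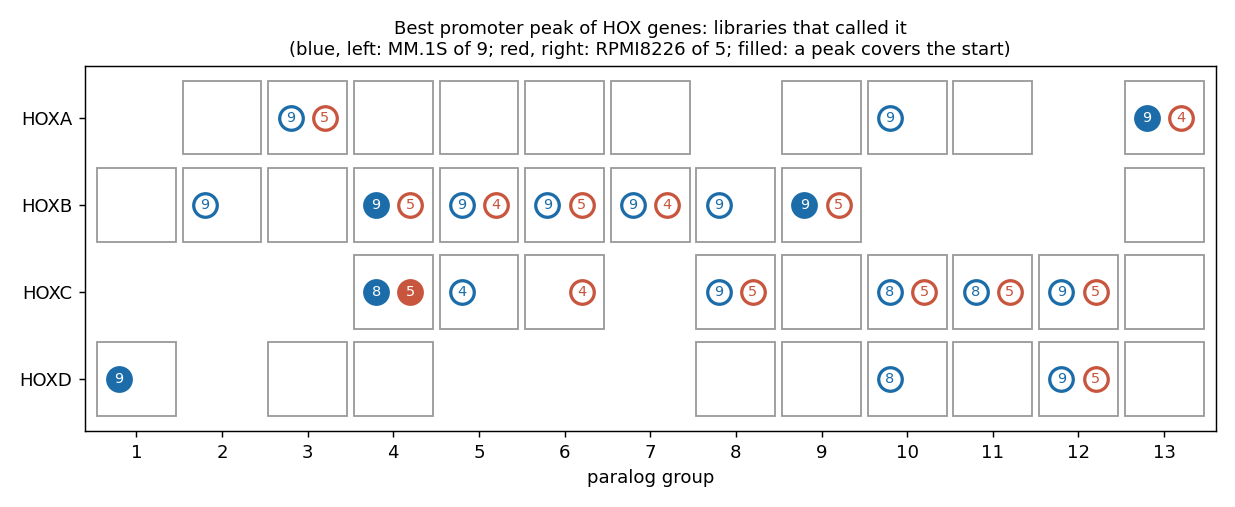
Promoter peaks of the HOX genes by cluster (rows) and paralog group (columns). Blue circles (left) give the libraries of 9 that called the best-supported MM.1S peak and red circles (right) the libraries of 5 for RPMI8226, filled where a peak covers the start. HOXB4 to HOXB9 and the HOXC row hold most of the pairs, and most HOXA and HOXD boxes are empty. A place without a box has no gene or one not reported here.

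By paralog group, MM.1S had a promoter peak for each gene of group 10 (3 genes) and group 12 (2 genes), and of groups 9 and 13 (4 genes each) for 1 gene. In RPMI8226, both genes of group 12 had one (interval 34.2 to 100.0). These are extremes picked from 13 groups of 2 to 4 genes. In MM.1S the intervals were 43.9 to 100.0 for group 10 and 34.2 to 100.0 for group 12. They overlapped that of groups 9 and 13, 4.56 to 69.9 for each. The genome-wide values were 71.5% for MM.1S and 65.2% for RPMI8226. Groups this small are not read as a pattern by paralog.

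HOXA spans 107.1 kb (chr7:27092993-27200091). MM.1S had 7 peaks in the region, and the 6 inside the cluster were each called in 9 of 9 libraries. HOXA10 had 2 MM.1S promoter peaks, the nearer 395 bp from its start, and its nearest RPMI8226 peak was 23216 bp away. HOXA13, at the far end, had a 731 bp MM.1S peak over its start and in RPMI8226 a 287 bp peak with support 3 beside it and a 329 bp peak with support 4 within the promoter window.

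HOXA3 was the other gene of this cluster with a promoter peak in both lists, 1092 bp wide in MM.1S and 502 bp in RPMI8226. At their canonical starts, the remaining HOXA2, HOXA4, HOXA5, HOXA6, HOXA7, HOXA9 and HOXA11 had none in either. The annotated HOXA6 gene begins upstream of its canonical start, at chr7:27150603. That base lies inside the MM.1S peak of HOXA3 and at the edge of the RPMI8226 one. The longest stretch without an MM.1S peak ran 53.7 kb (chr7:27096665-27150377) over the canonical starts of HOXA2, HOXA4, HOXA5 and HOXA6. HOXA3 was placed by its canonical start, which lies outside this stretch. Other RefSeq starts of HOXA3 lie inside it, such as the one with upstream bases chr7:27113846-27114092. Another RefSeq start of HOXA3, with upstream bases chr7:27150951-27151200, lies inside the HOXA3 promoter peak of both lists. In RPMI8226 the longest ran 47.4 kb (chr7:27151105-27198475), over HOXA3, HOXA7, HOXA9, HOXA10 and HOXA11. The stretches do not overlap, and in RPMI8226 a 280 bp peak with support 5 and a 177 bp peak with support 3 lay within the MM.1S gap. The canonical start of HOXA9 was 4149 bp from an MM.1S peak and 14433 bp from an RPMI8226 peak. The annotated HOXA9 gene begins farther upstream, at chr7:27175180, within 2500 bp of the MM.1S peak chr7:27173025-27173925.

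The widest HOXA peak of MM.1S, 1226 bp (chr7:27160163-27161388), lay between HOXA7 and HOXA9, had support 9 and had no counterpart in RPMI8226. It holds the HOXA7/HOXA9 CTCF match printed above. The widest of RPMI8226 was the 502 bp peak near HOXA3.

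HOXB spans 200.2 kb (chr17:48528526-48728750), of which the stretch between HOXB9 and HOXB13 is the longest interval between genes. This cluster had the most peaks, 24 in MM.1S and 22 in RPMI8226, and 13 MM.1S peaks were shared with RPMI8226 (54.2%, interval 35.1 to 72.1). Here, shared peaks are those with an overlap of 1 bp or more between the lists. HOXB4, HOXB5, HOXB6, HOXB7 and HOXB9 had promoter peaks in both lists, HOXB2 and HOXB8 in MM.1S only, and HOXB1, HOXB3 and HOXB13 in neither. At HOXB4, MM.1S had a 1221 bp peak over the start, called in 9 libraries, and RPMI8226 a 535 bp peak called in 5. At HOXB9 a 1137 bp MM.1S peak was matched by 2 RPMI8226 peaks of 594 and 400 bp, both with support 5, on either side of the start.

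The widest peak of all HOX regions, 2445 bp (chr17:48611042-48613486), lay between the starts of HOXB7 and HOXB8 in MM.1S. It had support 9 and no overlapping peak in RPMI8226, where the nearest peak to HOXB7 was 273 bp wide, with support 4, at 1669 bp. The widest RPMI8226 peak of this cluster, 711 bp (chr17:48585293-48586003), lay between the canonical starts of HOXB4 and HOXB3, in an intron of HOXB3, was called in all 5 libraries, and overlapped a 964 bp MM.1S peak. HOXB1 and HOXB2 lay in the longest RPMI8226 gap, 47.2 kb (chr17:48528526-48575741). In MM.1S the longest gap was 45.6 kb (chr17:48678861-48724444), between HOXB9 and HOXB13, and contained no HOX start. Beside HOXB13, PRAC1 and PRAC2 had promoter peaks in both lists, while HOXB13 was 3656 bp and 7555 bp from a peak. The PRAC1 and PRAC2 peaks of the lists did not overlap. They lay at chr17:48724445-48725094 in MM.1S and chr17:48720651-48721195 in RPMI8226.

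HOXC spans 117.2 kb (chr12:53938831-54056030) and lacks groups 1 to 3 and 7. In all, 6 genes in each list had a promoter peak. HOXC4, HOXC8, HOXC10, HOXC11 and HOXC12 had one in both, HOXC5 in MM.1S only, HOXC6 in RPMI8226 only, and HOXC9 and HOXC13 in neither. The best of the HOXC5 peaks had support 4 of 9, and the HOXC6 peak had support 4 of 5. HOXC4 was the only gene with its start inside a peak in both lists, 1404 bp wide with support 8 in MM.1S, and 173 bp wide with support 4 in RPMI8226, ending 2 bp past the start, where another peak of 572 bp had support 5.

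HOXC was the most peak-dense cluster, with 13.7 MM.1S peaks and 9.39 RPMI8226 peaks per 100 kb inside its ends. Its MM.1S peaks were also the least uniform between libraries, and 6 of 18 (33.3%, interval 16.3 to 56.3) were called in all 9 libraries, against 6 of 7 in HOXA, 16 of 24 in HOXB and 6 of 8 in HOXD. The widest RPMI8226 peak of any HOX region, 1038 bp (chr12:54017383-54018420), lay between the canonical starts of HOXC8 and HOXC6, in introns of HOXC6 and HOXC4, and had support 5. It overlapped a 725 bp MM.1S peak, 1 of only 2 pairs in which RPMI8226 was the wider. The widest MM.1S peak was the 1404 bp peak at HOXC4 (chr12:54052872-54054275). Gaps were short, at most 16.9 kb in MM.1S (chr12:53957557-53974449) and 17.7 kb in RPMI8226 (chr12:53938831-53956543), the latter over HOXC12 and HOXC13.

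HOXD spans 98.2 kb (chr2:176092721-176190907) and had few peaks in RPMI8226. MM.1S had 8 peaks in the region and RPMI8226 had 2, both between HOXD13 and HOXD12. They were 383 bp with support 5 (chr2:176097503-176097885) and 228 bp with support 3 (chr2:176096587-176096814), and both overlapped MM.1S peaks, of 853 bp with support 9 and 666 bp with support 5. From there to the HOXD1 end, 93.0 kb (chr2:176097886-176190907) or 94.7% of the cluster held no RPMI8226 peak, and 8 of the 9 HOXD starts lay in that stretch. MM.1S had 5 further peaks inside the cluster, 4 with support 9 and 1 with support 8.

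HOXD12 was the only HOXD gene with a promoter peak in both lists. HOXD1 and HOXD10 had one in MM.1S, and HOXD3, HOXD4, HOXD8, HOXD9, HOXD11 and HOXD13 in neither. The HOXD1 peak was 1420 bp wide (chr2:176187642-176189061), called in 9 of 9 libraries, and covers also the start of HAGLR, a divergent long noncoding RNA. The longest MM.1S gap ran 36.9 kb (chr2:176141196-176178069) over HOXD3 and HOXD4. A gap in a list says only that no peak was present in at least 3 libraries, and what lower coverage would leave there cannot be seen without read counts.

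**Figure D3:**
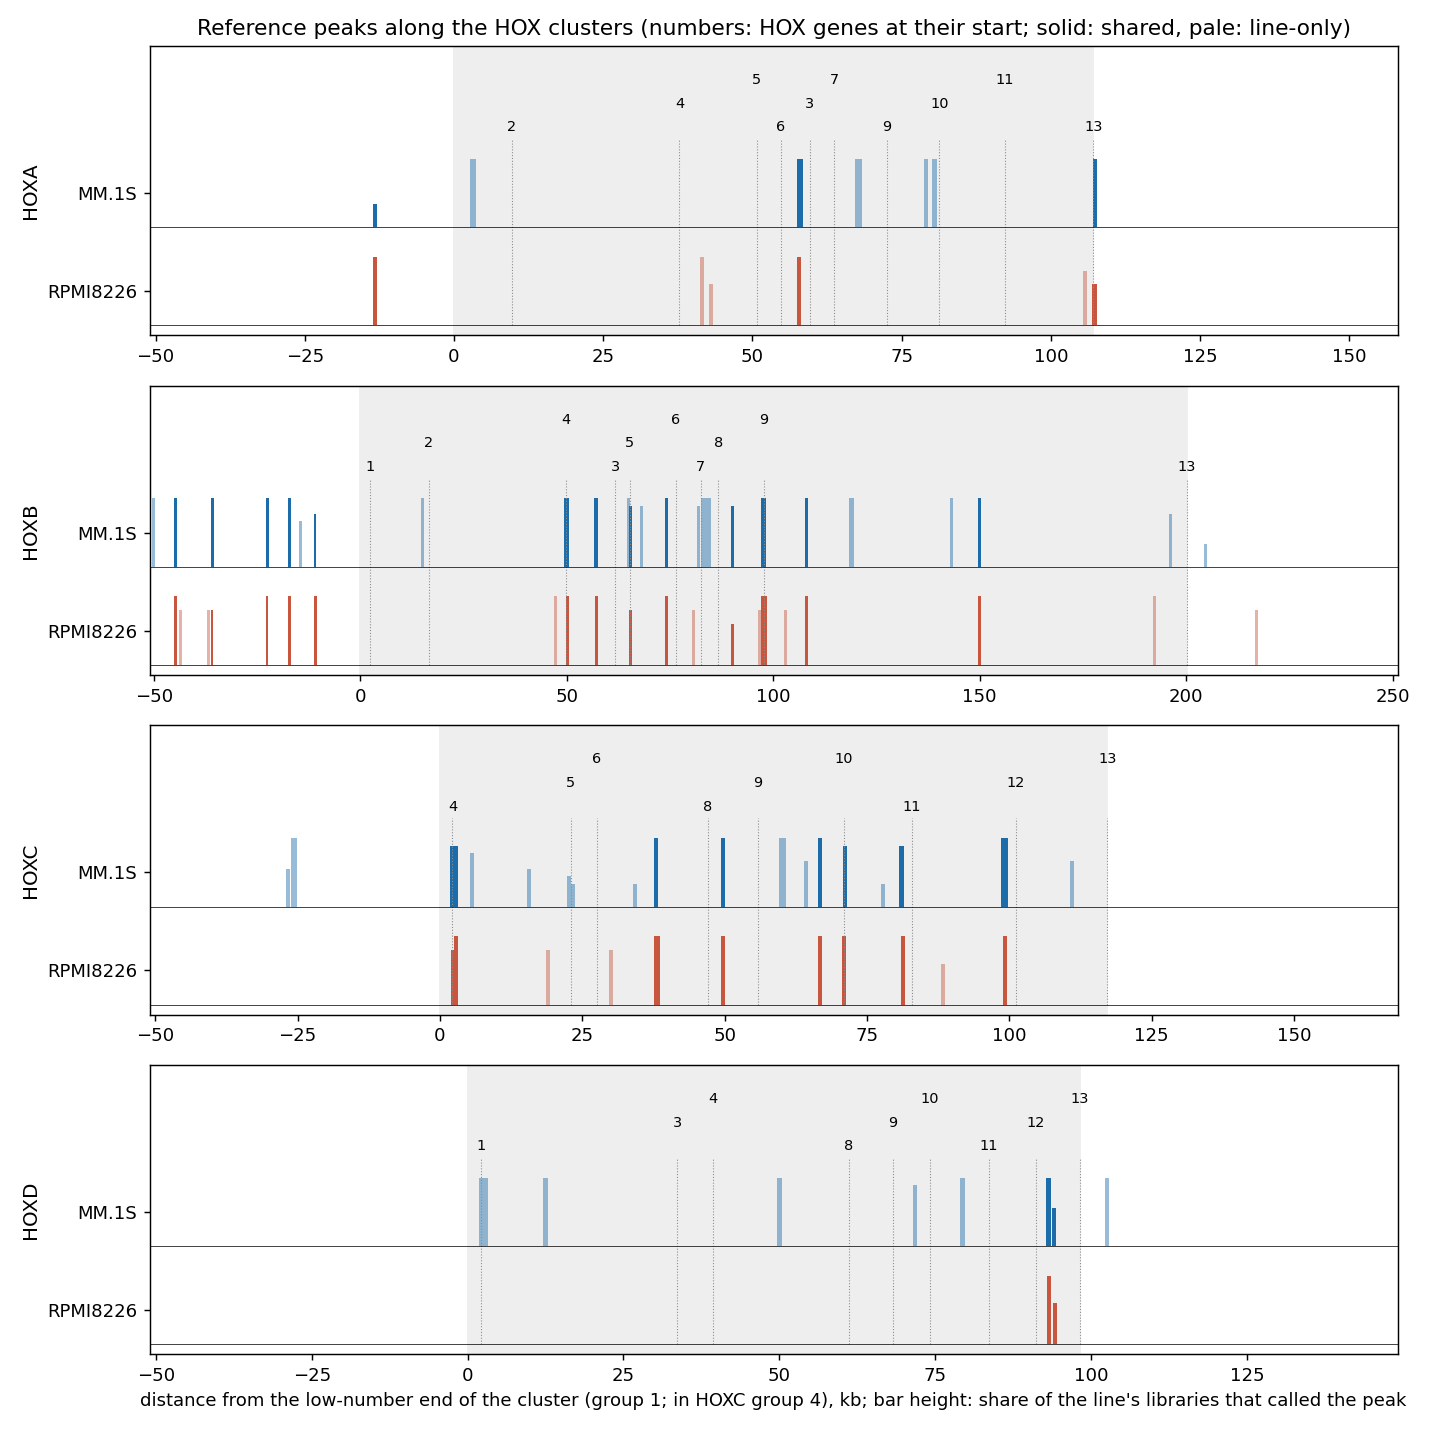
Reference peaks along each cluster (shaded) and 50 kb of flank, by distance in kb from the low-number end. Bar height gives the share of a line's libraries that called the peak, solid bars are shared and pale bars line-only, and numbers mark the HOX starts reported here. In HOXD the 2 RPMI8226 peaks sit beside HOXD12, and the MM.1S peaks extend to HOXD1.

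Although few starts lay under a peak, the 4 regions together were denser in peaks than the genome. Density was 6.18 peaks per 100 kb in MM.1S and 4.44 in RPMI8226, against 2.36 and 2.59 over chromosomes 1 to 22, X and Y. Peaks covered 4.39% of the regions in MM.1S and 1.74% in RPMI8226, against 1.5% and 1.13%. This did not hold for each cluster in RPMI8226, where the HOXD region had 1.01 peaks per 100 kb and 0.308% of it covered, and the HOXA region had 0.941% covered, below the genome. Inside the cluster ends lay 45 MM.1S and 31 RPMI8226 peaks. The peaks were GC-rich, with a median of 59.4% in both lists, against 50.9% and 50.2%, and a median CpG ratio of 0.638 and 0.468, against 0.242 and 0.22.

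A smaller share of MM.1S peaks had a counterpart than in the whole list. Of 57, 25 were shared (43.9%, interval 31.8 to 56.7), against 64.6% of all MM.1S peaks. Of 41 RPMI8226 peaks, 27 were shared (65.9%, interval 50.5 to 78.4), near the 62.0% of all. By cluster, MM.1S shares were 3 of 7 in HOXA, 13 of 24 in HOXB, 7 of 18 in HOXC and 2 of 8 in HOXD. Peaks called in every library made up 34 of 57 in MM.1S (59.6%, interval 46.7 to 71.4, against 52.0% of all) and 24 of 41 in RPMI8226 (58.5%, interval 43.4 to 72.2, against 64.1%).

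The peaks absent from the other list were of different kinds. Of 32 MM.1S-only peaks, 17 were called in all 9 libraries (53.1%, against 27.5% of all line-only MM.1S peaks), with a median CpG ratio of 0.66. Of 14 RPMI8226-only peaks, 3 were called in all 5 libraries (21.4%, against 43.6%), with a median CpG ratio of 0.156. The MM.1S-only peaks called in all libraries include those at HOXA10, HOXB2, HOXB7/HOXB8 and HOXD1.

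Where a HOX peak was matched to a single peak of the other list, it was wider in MM.1S in 21 of 23 pairs (91.3%), against 81.6% of 44631 such pairs over the genome. Median widths in the pairs were 712 and 411 bp, and the median ratio was 1.78, against 1.28. Over all HOX peaks the median was 667 bp in MM.1S and 383 bp in RPMI8226, against 536 and 362 bp in the whole lists. Peaks were thus wider in MM.1S in the whole lists too, and the parts of depth and of the number of libraries in this were not tested.

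**Figure D4:**
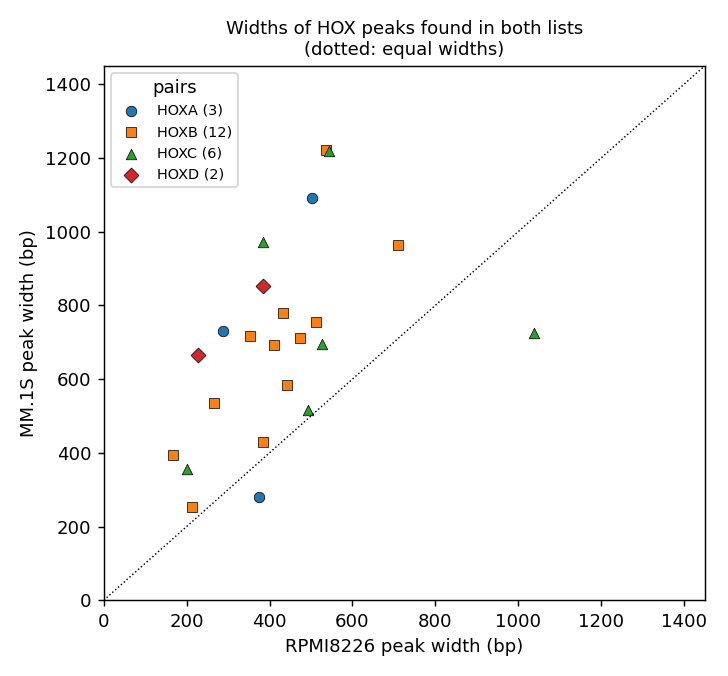
Widths in bp of the 23 HOX peak pairs matched 1 to 1, MM.1S (vertical) against RPMI8226 (horizontal), with the dotted line at equal width. All but 2 pairs lie above the line, and the 1038 bp RPMI8226 peak of HOXC lies below it.

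The support numbers limit what culture conditions could have done at these peaks. A peak in more than 6 of the 9 MM.1S libraries must include MONO, TSW and CO. This held for 45 of 57 HOX peaks (78.9%), against 72.3% of the list. The 5 with support 3 could stem from 1 condition, whichever it was. In RPMI8226, 24 of 41 peaks (58.5%, against 64.1%) had full support and so included the single MONO library, and no peak could come from CO alone. Whether accessibility at these peaks differed between the conditions cannot be seen from support.

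CTCF matches were few under the consensus used, which was searched on both strands. It was found in 3 of 57 MM.1S peaks (5.26%, interval 1.81 to 14.4), against 8.95% of all, and in 1 of 41 RPMI8226 peaks (2.44%, interval 0.432 to 12.6), against 6.34%. With a looser form of the consensus over whole peaks, the share was 35.1% of HOX peaks against 23.9% of all in MM.1S, and 22.0% against 17.2% in RPMI8226. In the central 200 bp, which takes no account of peak width, it was 10.5% against 11.2% in MM.1S and 12.2% against 9.8% in RPMI8226. The regions hold 16 matches in all, of which 13 lay in no peak. Over the genome 27.9% of 24281 matches lay in an MM.1S peak and 21.6% in an RPMI8226 peak. The HOXA7/HOXA9 and HOXB1/HOXB2 matches lay in MM.1S peaks with support 9 and had no RPMI8226 peak. The HOXB8/HOXB9 match lay in a 395 bp MM.1S peak with support 8 and a 166 bp RPMI8226 peak with support 3.

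Other motifs were searched on both strands in the central 200 bp of each peak. The AP-1 motif TGANTCA was found in 3 of 57 MM.1S peaks (5.26%, against 9.96%) and 5 of 41 RPMI8226 peaks (12.2%, against 17.6%). TGATTNAT, the site that PBX and HOX proteins bind together, was found in 1 peak of each list, near the 1.95% and 2.55% of all peaks. A match describes the letters and not a bound factor.

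Noncoding genes of the clusters were counted in the same way. Of 21, 6 had a promoter peak in both lists, 7 in MM.1S only, 1 in RPMI8226 only and 7 in neither. Over all 20745 long noncoding RNA and microRNA genes the shares were 28.3%, 7.61%, 5.47% and 58.6%. HOTAIR, HOTTIP and HOXC-AS3 were in the first group. HOXB-AS1, HOXC-AS2, HAGLR and HAGLROS were in the second, as were MIR196B and MIR615. MIR196A1 was the RPMI8226-only gene. The microRNAs of the clusters repress HOX messages, among other targets, and the mature forms of MIR10A, MIR196A2 and MIR196B are shown from RefSeq with the seed, bases 2 to 8, in capitals.
miR-10a-5p: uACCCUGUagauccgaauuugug
miR-196a-5p: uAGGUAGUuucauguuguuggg
miR-196b-5p: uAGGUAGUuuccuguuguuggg
The latter pair share the seed AGGUAGU. The MIR196A2 sequence lies inside a 364 bp MM.1S peak with support 6, and its nearest RPMI8226 peak was 2216 bp away. MIR196B was 2163 bp from an MM.1S peak and 18424 bp from an RPMI8226 peak. MIR10A, upstream of HOXB4, was 864 and 1005 bp from a peak. Of 7 other protein-coding genes overlapping the regions, 4 had promoter peaks in both lists and 3 in neither, among the latter EVX1 and EVX2. Over all protein-coding genes the shares were 62.0% and 25.4%. Among the former, TTLL6 starts outside the HOXB region, at chr17:48817229.

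Genes that act with or on the HOX clusters are read against the 62.0% of all protein-coding genes with a promoter peak in both lists. Of 9 cofactors, which bind DNA together with HOX proteins, 6 (66.7%) had one in both lists, among them PBX2, PBX3, MEIS1, MEIS2 and PKNOX1. MEIS3 and PKNOX2 had one in MM.1S only and PBX4 in RPMI8226 only. Of 11 activators, KMT2A, MEN1, ASH2L, WDR5, RBBP5 and RARG had one in both lists (54.5%). With so few genes, neither share is read as a difference from all genes. By list, 6 activators had a promoter peak in MM.1S (54.5%, against 71.5% of all genes) and 8 in RPMI8226 (72.7%, against 65.2%). The retinoic acid receptors RARA and RARB had one in RPMI8226 only, and CDX1, CDX2 and CDX4 in neither. Of 14 Polycomb components and H3K27 demethylases, 13 (92.9%) had one in both lists, EZH2, EED, SUZ12 and KDM6A among them, and PCGF2 in RPMI8226 only. CTCF and RAD21 had one in both.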

How the data were processed

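Omni-ATAC was measured in 14 libraries of 2 myeloma lines, grouped from the sample titles. The authors aligned paired reads to hg38 with Bowtie2, removed reads mapping to several places and duplicates, called peaks with MACS3 and kept peaks present in at least 3 samples. Versions, the calling threshold and the joining of boundaries are not given in the sources used here. The deposited lists give position and a whole number without a header, read here as support and normalized by nothing. Their starts were read as 0-based, which they do not state, so that positions may be 1 base off. The lists hold no read depth, and the library totals that the study gives were not used here.

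Members, gene lists and comparisons were chosen with earlier results of these data known. Starts were those of canonical transcripts in GENCODE release 44. The rule named all HOX genes, with noncoding and protein-coding genes of the regions, cofactors, regulators, homeobox genes by name stem, the widest peak of each cluster and list, and the longest gaps. The stems took 86 names, of which 3 (ENG, PDXK and PDXP) encode no homeobox and were left out after the match was seen. Some items under this rule are not reported here. Overlap needed 1 bp. Overlap and motif code was tested on simulated data. Python 3.11.15, numpy 2.4.6 and scipy 1.17.1 were used. Alternatives were promoter windows, transcript starts, flanks, overlap, support and motif forms.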

Additional observations from a re-analysis of the deposited data

How the results depend on the processing

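No paired analysis was possible because the lists pool the libraries and no result comes from a test, and leaving out a library could not be done for the same reason. Of 46 alternative values, 31 stayed within 1.5 times the reported count or within the 95% interval of the reported share or median. With a promoter window of 1000 bp, 11 HOX genes in MM.1S (28.2%, against 67.1% of all genes) and 6 in RPMI8226 (15.4%, against 60.0%) had a peak. With the start itself inside a peak, chosen after seeing the data, the counts were 6 (15.4%, against 62.1%) and 1 (2.56%, against 53.9%). Only peaks called in every library left 34 and 24 in the regions, a median width of 768 and 458 bp, 87.5% shared in RPMI8226 and a CTCF consensus in 0.0% in RPMI8226. An overlap of at least 50% of both peaks left 24.6% of MM.1S and 34.1% of RPMI8226 peaks shared. The shared percentages of the whole lists under these settings are not given here, so these values cannot be set against them. The CTCF consensus lay in the central 200 bp of 1.75% of MM.1S peaks, and a looser form, chosen after seeing the data, was found in 35.1% and 22.0%, against 23.9% and 17.2% of all peaks, above the whole lists instead of below. In the central 200 bp the looser form was found in 10.5% against 11.2% in MM.1S, still below, and in 12.2% against 9.8% in RPMI8226. The cause was not tested. Using the starts of all annotated transcripts, 26 and 16 HOX genes had a promoter peak. The share of all genes under that setting is not given here, so these counts cannot be set against it. Without read counts, depth limits each absence of a peak.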
